A study of Mus musculus with 6 samples.

Results

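The genes described here are the kinases that phosphorylate the translation factor eIF2α and the genes of the ATF4 and CHOP branch that follows, 10 in all: Eif2ak1, Eif2ak3, Eif2ak4, Atf4, Atf5, Ddit3, Trib3, Asns, Chac1 and Ppp1r15a. Members were the probes, other than control probes, that carry one of these gene names on a whole-genome mouse array. The rule found 13 of 55681 probes, and 12 of them, covering all 10 genes, could be tested among 18769 probes of 14143 genes. It used no measured value.

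Erythroblasts were sorted as CD71high Ter119+ bone marrow (BM) cells from 3 P38α+/− and 3 P38α−/− mice on day 4 of recovery from anemia, and RNA of each mouse (10 ng, amplified) was hybridized to 1 array in 1 color. The question that the comparison addresses is how expression in recovering erythroblasts differs when P38α, a stress-activated kinase encoded by Mapk14, is lost. P38α+/− mice carried Mx1-Cre with 1 floxed allele and P38α−/− mice carried Mx1-Cre with both alleles floxed, all on C57Bl/6. Every mouse, controls included, had received 3 injections of PolyIC (300 µg) at 6 to 8 weeks of age to induce Cre, 6 weeks of rest, and 1 injection of the hemolytic agent phenylhydrazine (PHZ) at 100 mg per kg. Mx1-Cre is driven by an interferon-responsive promoter that is active in many cell types, so deletion was not limited to erythroid cells. The controls lacked 1 copy of the gene, and no wild-type or untreated mouse was among the arrays.

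In the integrated stress response, separate kinases sense separate stresses and converge on eIF2α. HRI, the product of Eif2ak1, responds to lack of heme and predominates in erythroid cells, where it matches globin synthesis to heme supply. PERK (Eif2ak3) responds to unfolded protein in the endoplasmic reticulum (ER), and GCN2 (Eif2ak4) to lack of amino acids. Phosphorylated eIF2α lowers general translation but favors translation of ATF4, a transcription factor that raises genes of amino acid supply and, with the factor CHOP, genes such as Trib3 and Chac1. GADD34, the product of Ppp1r15a, brings a phosphatase to eIF2α and closes the loop. Phosphorylation and translation are not seen by an array, which reads mRNA alone.

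Levels are given on the log2 scale as the signal of a probe minus the 75th percentile of its array, so that 0 is a bright probe and −5 a dim one, and levels of different probes cannot be compared. Between 28.9% and 53.0% of probes were well above background on an array, and P38α−/− replicate 1 had the fewest. The median tested probe was lower in P38α−/− by a log2 difference of −0.16. For each member gene the difference of its brightest tested probe is therefore also given relative to that median. Differences of other genes are given without this step. All 9 erythroid markers (Tfrc, Klf1, Gata1 and others) were tested and 0 were called. The genotypes did not overlap for 2 of them (1 higher and 1 lower in P38α−/−), against 27.1% of all tested genes. Their mean log2 level was 3.45 to 3.77 in P38α+/− and 3.52 to 3.73 in P38α−/−. Neutrophil markers were also present in both genotypes: 9 of 9 were tested and 0 were called. Of these, 7 did not overlap between genotypes and were lower in P38α−/−, where 19.6% of all tested genes were. Their mean log2 level was 3.30, 4.13 and 2.51 in P38α+/− replicates 1 to 3 and 2.08, 1.91 and 1.48 in P38α−/−. Monocyte and macrophage markers averaged −4.96 to −3.37 in P38α+/− and −5.88 to −4.04 in P38α−/−, with Mrc1 not above background on any array, and B cell markers −6.44 to −3.34 and −7.39 to −6.15. Megakaryocyte markers averaged −4.71 to −3.92 and −4.97 to −4.40, with Gp1bb and Ppbp not above background, and T and NK cell markers −5.83 to −4.42 and −6.21 to −5.41, with Cd8a and Klrd1 not above background. Lower in P38α−/− without overlap were 1 of 6 tested macrophage, 1 of 2 B cell, 1 of 3 megakaryocyte and 1 of 2 T and NK cell markers. The targeted gene, Mapk14, was not lower in arrays labelled P38α−/−. Its brighter probe (chr17:28885290-28885349, mm9) read 0.32, 0.58 and 0.60 in P38α+/− and 0.75, 1.19 and 1.20 in P38α−/−, a difference of 0.54 (SE 0.19, adjusted p = 0.187). The other probe differed by 0.01 (SE 0.42). Where these probes lie relative to the floxed part was not examined, so these probes are no check of the genotype labels, and genotypes are those of the labels throughout.

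None of the 10 genes passed the test between genotypes that was applied to all probes. limma, with an adjusted p of at most 0.05 and a fold of at least 2, called 0 of 10, where it called 27 of all 14143 tested genes (0.191%). When replicate numbers entered the fit as a block it called 0 of 10, against 63 genes or 0.445% of all. At an unadjusted p of at most 0.05, limma returned 1 of 10 genes, Atf5, against 20.0% of all tested genes. The methods' unpaired equal-variance test called 0 of 10 after adjustment, where it called 2 of all 14143 tested genes. Before adjustment the p of that test was 0.0341 for Ppp1r15a (adjusted p = 0.277) and 0.0864 for Atf5 (adjusted p = 0.346). The share of all tested genes with so low an unadjusted p in that test was not counted, so these values have no background. The 3 arrays of each genotype did not overlap for 2 of 10 genes, Atf5 and Ppp1r15a, both lower in P38α−/−, where 27.1% of all tested genes did not overlap in either direction and 19.6% did so in the lower direction. These shares are close to the background. The median log2 difference of the 10 genes was −0.13, against −0.14 over all tested genes, and the median probe split the genes 5 to 5. In RNA from a sorted population, fewer cells of a type and less RNA per cell cannot be told apart.

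**Figure D1:**
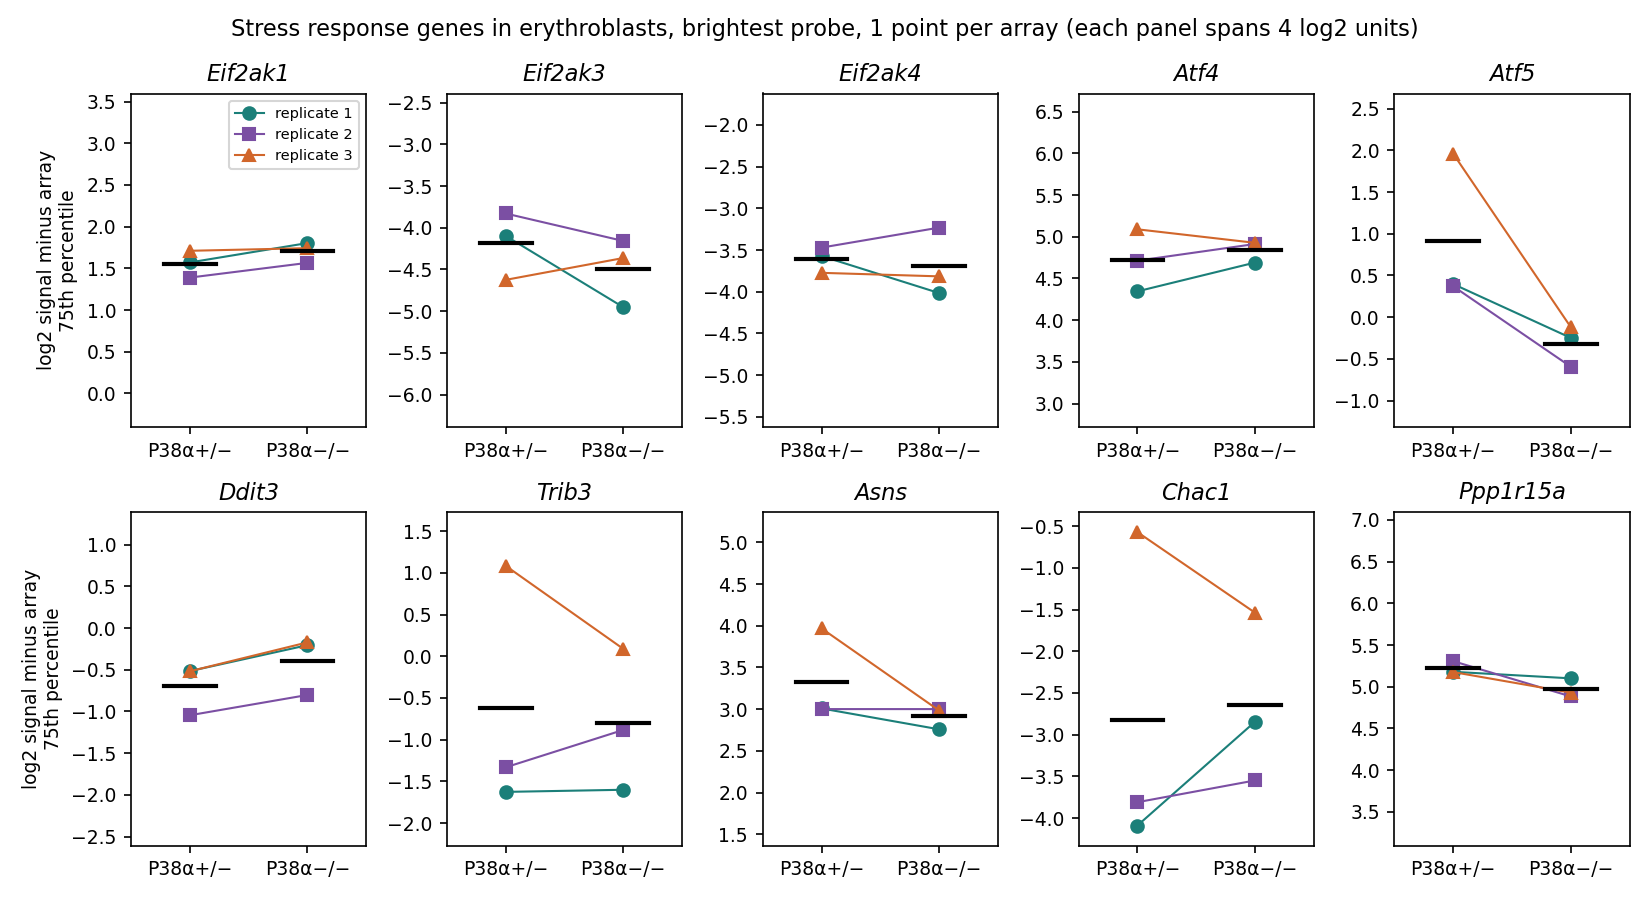
Log2 signal minus the 75th percentile of the array (vertical axis, 4 log2 units in every panel) for the brightest tested probe of each gene in P38α+/− and P38α−/− mice. Each point is 1 array, lines join arrays of the same replicate number and black bars are means of 3 arrays. Atf5 and Ppp1r15a do not overlap between genotypes, and Trib3 and Chac1 are highest on both replicate 3 arrays.

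Of the kinases, Eif2ak1 varied least over the 6 arrays. Its probe (chr5:144662840-144662899, mm9) read 1.57, 1.39 and 1.71 in P38α+/− and 1.80, 1.57 and 1.74 in P38α−/−. The genotypes overlapped, although each P38α−/− array was above the P38α+/− array of its own number, by 0.23, 0.18 and 0.03. The means were 1.56 ± 0.16 and 1.70 ± 0.12 (SD, n = 3 each), and the log2 difference of 0.15 (SE 0.16, 95% interval −0.24 to 0.54, limma adjusted p = 0.646) lay within the spread between arrays. This interval leaves out a 2-fold change of HRI mRNA in either direction, but the intervals with the percentile over all probes (−0.10 to 1.36) and with spike-in centring (−1.41 to 2.12) include one. Relative to the median probe the difference was 0.31, and it was −0.01 in the table the authors normalized. The range of Eif2ak1 over the P38α+/− arrays was 0.32, smaller than the median range of 0.50 over tested genes.

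Eif2ak3 and Eif2ak4 were dim. The Eif2ak3 probe (chr6:70855152-70855211) read −4.10, −3.83 and −4.63 in P38α+/− and −4.95, −4.16 and −4.36 in P38α−/−. Its genotypes overlapped. The difference was −0.31 (SE 0.29, 95% interval −1.02 to 0.40, adjusted p = 0.594), or −0.15 relative to the median probe. The brightest of the 3 Eif2ak4 probes (chr2:118300892-118300951) read −3.57, −3.47 and −3.77 in P38α+/− and −4.02, −3.23 and −3.82 in P38α−/−. GCN2 mRNA thus overlapped as well. Its difference was −0.08 (SE 0.24, 95% interval −0.66 to 0.49, adjusted p = 0.878), or 0.08 relative to the median probe. A dimmer Eif2ak4 probe (chr2:118277964-118278023), well above background on 3 of 3 P38α+/− and 2 of 3 P38α−/− arrays, differed by −0.62 (SE 0.42, adjusted p = 0.435). The Eif2ak4 probe at chr2:118253890-118253949 was well above background on 1 array and was not tested.

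None of the 3 transcription factors passed the test. Atf4, whose protein is controlled mainly at translation, had bright mRNA in every array. Its brighter probe (chr15:80087902-80087961) read 4.34, 4.71 and 5.09 in P38α+/− and 4.69, 4.91 and 4.93 in P38α−/−. All P38α−/− values fell inside the P38α+/− range. The difference was 0.13 (SE 0.22, 95% interval −0.41 to 0.67, adjusted p = 0.787), or 0.29 relative to the median probe. The second Atf4 probe (chr15:80086639-80086698) read 0.03, 0.27 and 1.01 against 0.16, 0.68 and 0.88, with a difference of 0.14 (SE 0.32, adjusted p = 0.843). Both probes gave the same order of arrays within each genotype.

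Atf5, a relative of ATF4 that is also translated when eIF2α is phosphorylated, had the largest difference among the 10 genes. Its probe (chr7:52067627-52067686) read 0.40, 0.37 and 1.96 in P38α+/− and −0.25, −0.60 and −0.12 in P38α−/−. Every P38α−/− array was below every P38α+/− array, and P38α+/− replicate 3 stood above the other 2 of its genotype. Means were 0.91 ± 0.91 and −0.32 ± 0.24 (SD, n = 3 each), a level 2.35-fold lower in P38α−/−. The log2 difference was −1.23 (SE 0.45, 95% interval −2.31 to −0.15), or −1.07 relative to the median probe. The limma p of the log2 difference was 0.0318 and the adjusted p 0.200. By exact permutation of the 6 arrays the two-sided p was 0.10, the smallest that 3 against 3 arrays can give. Without P38α+/− replicate 3 the difference was −0.71 (adjusted p = 0.133). Over the scalings, background corrections, array weights and single arrays left out it lay between −1.50 and −0.71, and over all alternatives the adjusted p ran from 0.117 to 1.00. Neutrophil markers, whose values stand above, were also lower in P38α−/−. Within each genotype, however, Atf5 was highest on replicate 3, where the mean of those markers was lowest. The part of neutrophils in the Atf5 difference was not tested.

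Ddit3 encodes CHOP, a factor of the late, pro-apoptotic phase of the response. Its probe (chr10:126732518-126732821) read −0.52, −1.05 and −0.52 in P38α+/− and −0.21, −0.80 and −0.17 in P38α−/−. The genotypes overlapped, since replicate 2 was lowest in both. Within pairs of the same replicate number the P38α−/− array was higher by 0.31, 0.24 and 0.35. Unpaired, the difference was 0.30 (SE 0.25, 95% interval −0.30 to 0.91, adjusted p = 0.534), or 0.46 relative to the median probe. With the replicate block the limma p of the difference was 0.0576 and the adjusted p 0.191. Where a setting could move the difference, it lay between 0.12 and 0.78.

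**Figure D2:**
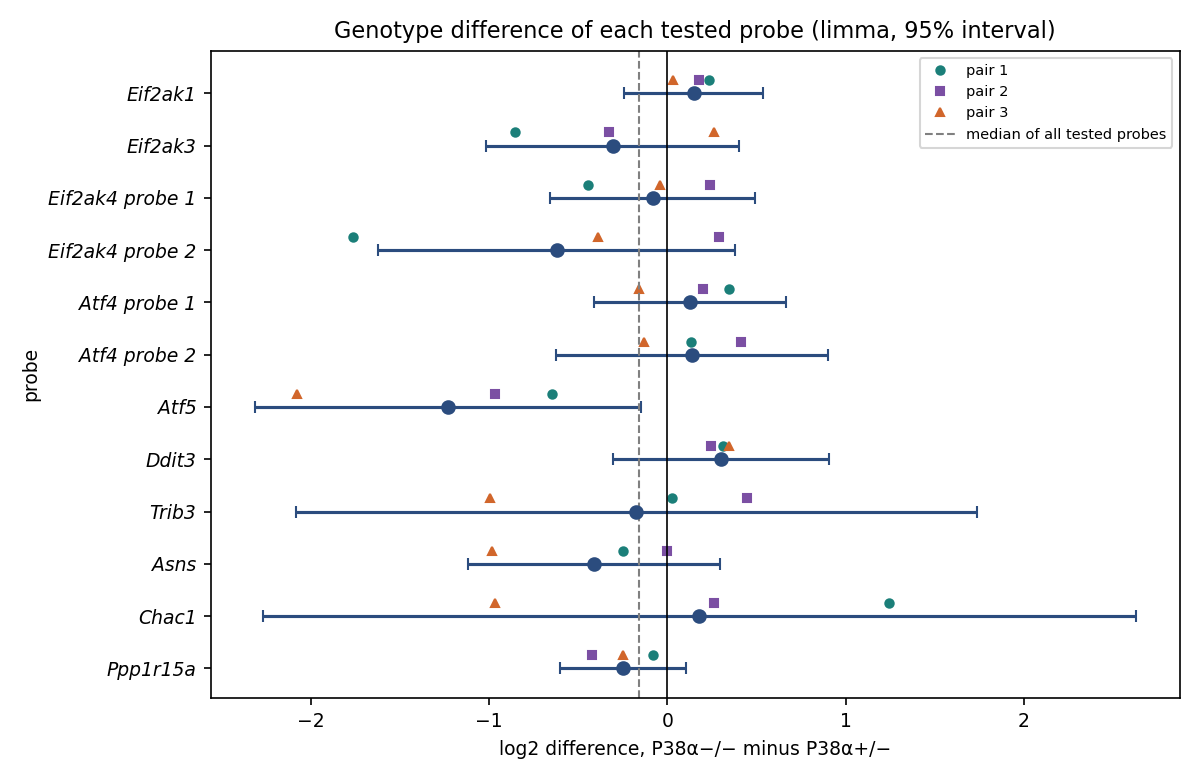
Log2 difference, P38α−/− minus P38α+/− (horizontal axis), of each of the 12 tested probes (vertical axis), with the limma estimate as a large point, its 95% interval as a bar, and the 3 differences between arrays of the same replicate number as small symbols. The dashed line is the median of all tested probes, −0.16. The Atf5 interval alone leaves out 0, and Trib3 and Chac1 have the widest intervals.

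Among the downstream genes, the promoters of Trib3, Asns and Chac1 hold a match to the C/EBP-ATF element, the sequence that ATF4 is known to bind with C/EBP partners. Promoters were taken from RefSeq (GRCm38.p6), 250 bases before to 50 after the start of each gene, and searched on both strands for TGATGNAAN. All 10 genes had a promoter in that table. A match was found for 3 of them, Asns, Chac1 and Trib3, against 1299 of 32851 promoters of the whole table (3.95%) and 226 of 8215 tested genes with a promoter (2.75%). A match is a description of letters and not a site shown to be bound. The ER stress element, CCAAT and CCACG with 9 bases between, was in 0 of the 10 and in 0.119% of all promoters. The upstream 250 bases of Asns (chr6:7693210-7693459, minus strand) and Chac1 (chr2:119350992-119351241, plus strand) are shown 5′ to 3′ in the direction of the gene with the match in capitals, because these genes differ in how far they varied among arrays while holding the same element.
Asns: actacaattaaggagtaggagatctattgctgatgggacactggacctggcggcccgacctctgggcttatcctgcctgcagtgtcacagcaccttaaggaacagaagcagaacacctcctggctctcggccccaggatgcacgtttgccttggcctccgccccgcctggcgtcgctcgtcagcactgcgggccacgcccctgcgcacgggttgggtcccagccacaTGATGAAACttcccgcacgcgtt
Chac1: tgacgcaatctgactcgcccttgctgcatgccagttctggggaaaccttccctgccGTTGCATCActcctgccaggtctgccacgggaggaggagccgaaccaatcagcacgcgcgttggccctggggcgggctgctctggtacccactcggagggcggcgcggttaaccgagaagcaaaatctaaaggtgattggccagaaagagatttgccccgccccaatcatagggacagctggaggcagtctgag
In Asns the match began 23 bases before the start and lay on the strand of the gene. In Chac1 it began 194 bases before the start and lay on the opposite strand, so that the capitals show its reverse complement. The Trib3 match, TTTACATCA as read on the strand of the gene, lay on the opposite strand and began at base 14 after the start.

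Trib3, a pseudokinase that restrains ATF4 and CHOP, varied far more among arrays of a genotype than between genotypes. Each mouse gave 1 array, so variation of mice and of sample handling cannot be told apart. Its probe (chr2:152163161-152163220) read −1.63, −1.33 and 1.08 in P38α+/− and −1.60, −0.88 and 0.09 in P38α−/−. Replicate 3 was the highest array in both genotypes. The level spanned 6.55-fold over the P38α+/− arrays and 3.22-fold over the P38α−/− arrays, a larger range than in 97.8% and 96.7% of tested genes. The difference between genotypes was −0.17 (SE 0.79, 95% interval −2.08 to 1.74, adjusted p = 0.925). Relative to the median probe it was −0.02, and it was 0.87 without P38α+/− replicate 3, 0.39 without P38α−/− replicate 1 and 0.04 without P38α−/− replicate 2, so single arrays set its sign. The replicate block narrowed the interval to −1.06 to 0.72.

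Chac1, an enzyme that degrades glutathione, behaved in the same way. Its probe (chr2:119179990-119180049) read −4.09, −3.81 and −0.57 in P38α+/− and −2.84, −3.55 and −1.54 in P38α−/−. Again replicate 3 was highest in both genotypes, and the genotypes overlapped. The level spanned 11.5-fold over the P38α+/− arrays and 4.03-fold over the P38α−/− arrays, more than in 99.2% and 98.1% of tested genes. Those shares are over genes of every brightness, and the Chac1 probe was dim outside the replicate 3 arrays. The difference was 0.18 (SE 1.02, 95% interval −2.27 to 2.63, adjusted p = 0.941). The replicate block narrowed this to −1.10 to 1.46. Within pairs the difference was 1.24, 0.26 and −0.97, and relative to the median probe it was 0.34, or −0.35, −0.14 and −0.22 without P38α+/− replicate 1, P38α+/− replicate 2 or P38α−/− replicate 3.

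Asns, which makes asparagine from aspartate, was bright and less variable. Its probe (chr6:7625171-7625228) read 3.01, 3.00 and 3.97 in P38α+/− and 2.76, 3.00 and 2.98 in P38α−/−. P38α+/− replicate 3 stood apart, and the other 5 arrays lay between 2.76 and 3.01. The difference was −0.41 (SE 0.29, 95% interval −1.12 to 0.29, adjusted p = 0.462). Relative to the median probe it was −0.25, and 0.10 without P38α+/− replicate 3.

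Ppp1r15a was the least variable of the 10 genes within each genotype. Its probe (chr7:52778320-52778379) read 5.18, 5.31 and 5.18 in P38α+/− and 5.10, 4.88 and 4.93 in P38α−/−. Every P38α−/− array was below every P38α+/− array, although the step between the nearest arrays was small. Means were 5.22 ± 0.07 and 4.97 ± 0.11 (SD, n = 3 each), a level 1.19-fold lower. The difference was −0.25 (SE 0.15, 95% interval −0.60 to 0.10, adjusted p = 0.374), and the exact permutation p was 0.10. Relative to the median probe the GADD34 transcript differed by −0.09.

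Trib3 and Chac1 varied widely between arrays, while Eif2ak1 and Ppp1r15a varied less over the 6 arrays than most tested genes (a smaller range was found in 13.6% and 14.5% of them). Over the 6 arrays, Pearson's r was computed for 45 pairs of genes, with exact permutation p adjusted over the 45. Trib3 and Chac1 had r = 0.919 (exact permutation p = 0.0153, adjusted p = 0.229) and Spearman's rho = 0.829 (exact permutation p = 0.0583, adjusted p = 0.375). Without the 2 arrays farthest from the Trib3 median, both of replicate 3, r was −0.06, so the relation rests on those arrays. Atf4 and Trib3 ranked the 6 arrays identically (rho = 1.00, exact permutation p = 0.00278, adjusted p = 0.125), with r = 0.829 (exact permutation p = 0.0347, adjusted p = 0.285). Without P38α+/− replicates 1 and 3, the 2 arrays farthest from the Atf4 median, r was 0.864. P38α−/− replicate 3 stayed in, and leaving out both replicate 3 arrays was not examined for this pair. Eif2ak1 and Eif2ak3 ran in opposite directions (r = −0.921, exact permutation p = 0.0125, adjusted p = 0.229). Without P38α+/− replicate 2 and P38α−/− replicate 1, the 2 arrays farthest from the Eif2ak1 median, r was −0.813. Ddit3 had r = 0.203 with Trib3 (exact permutation p = 0.719, adjusted p = 0.956) and r = 0.929 with Eif2ak1 (exact permutation p = 0.00833, adjusted p = 0.229). Without those same 2 arrays the r of Ddit3 with Eif2ak1 was 0.783. None of the 45 pairs passed 0.05 after adjustment. Arrays of the same replicate number were taken to come from paired mice, since the submitters describe pairs. The share of probes detected also differs between arrays, so the 6 points cannot be assumed to be independent.

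Other genes with the array pattern of Trib3 were sought after that pattern had been seen, and are described without a test. An r of at least 0.9 with Trib3 was found in 137 of 14138 other tested genes (0.969%). It was found in 4 of 11 aminoacyl-tRNA synthetases (Cars, Gars, Nars and Tars), the enzymes that charge tRNA and known ATF4 targets, with a median r of 0.894 over that list. It was also found in 3 of 14 genes of amino acid synthesis and transport (Mthfd2, Slc7a1 and Slc38a2) and in Herpud1, 1 of 9 other ATF4 and CHOP genes. Among the markers it was found in 1 of 9 erythroid genes, the transferrin receptor Tfrc, and in 0 of 9 neutrophil genes.

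The genes that followed Trib3 did so over a narrower range. Tars read −0.79, −0.64 and 0.04 in P38α+/− and −0.74, −0.42 and −0.28 in P38α−/−. Slc7a1, a transporter of cationic amino acids, read 1.56, 1.66 and 2.15 against 1.64, 1.80 and 1.92. Mthfd2, a mitochondrial folate enzyme, read −1.07, −0.95 and 0.07 against −0.84, −0.37 and −0.29. In each of these 3 genes both replicate 3 arrays were the highest of their genotype, as for Trib3 and Chac1. By Pearson's r over the 6 arrays the genes nearest to Trib3 were Uck2 (r = 0.989), Zw10 (r = 0.989) and Slc7a1 (r = 0.988). Within each genotype the replicate 3 arrays also had the lowest mean of the neutrophil, macrophage and B cell markers given above, and the part of these cells in the pattern was not tested.

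**Figure D3:**
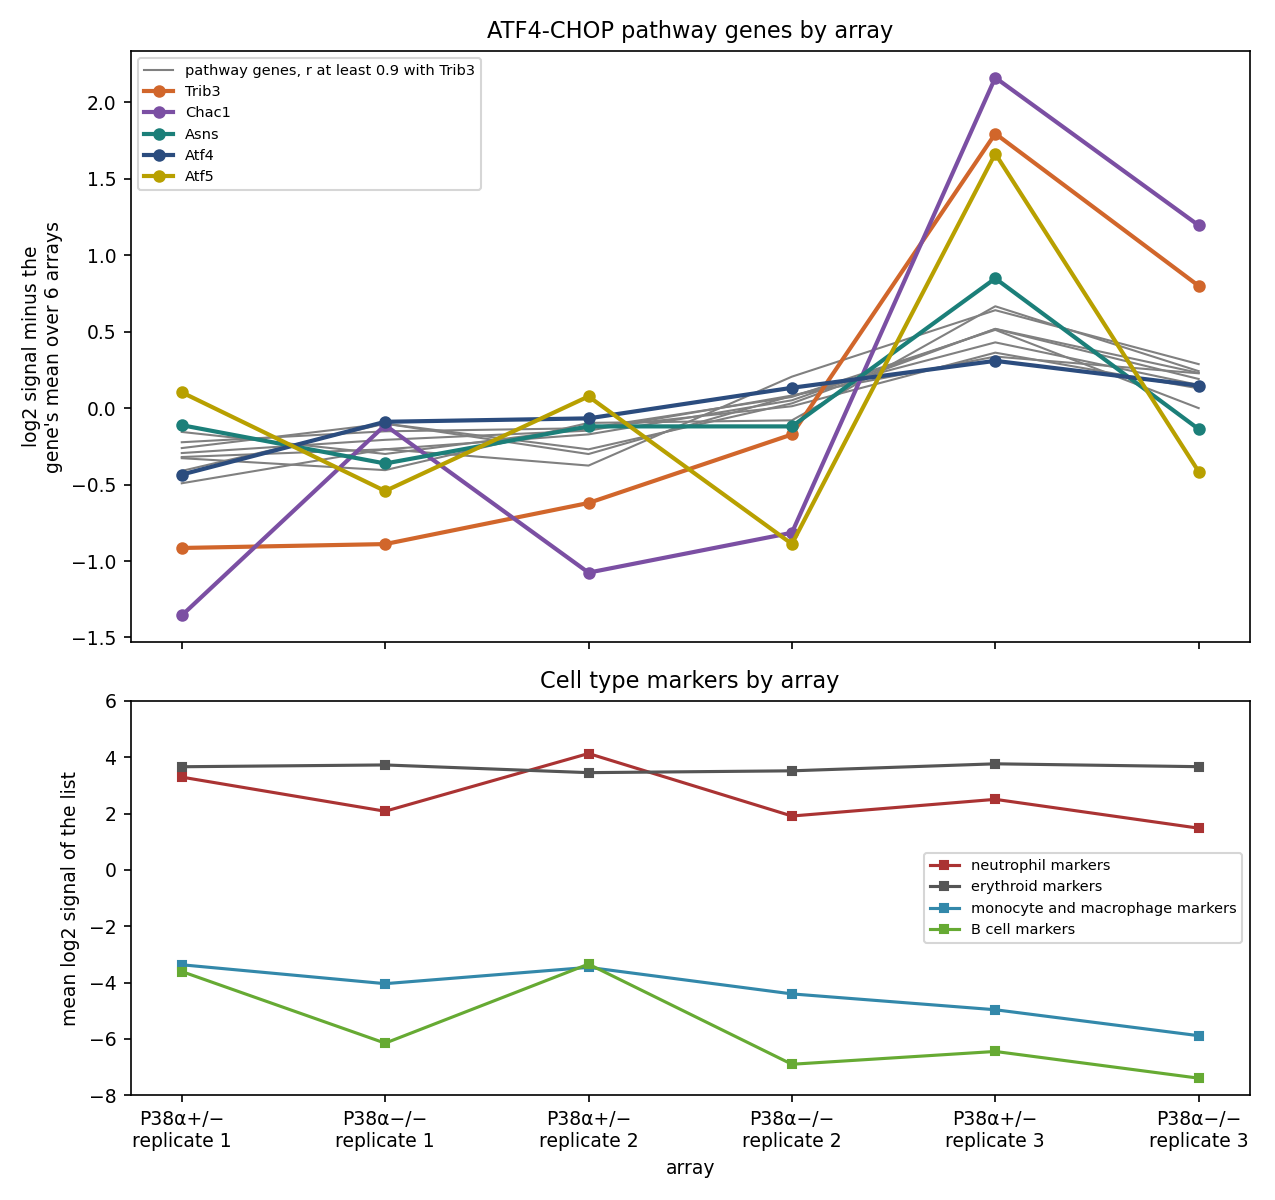
Upper panel: log2 signal minus the mean of the gene over 6 arrays (vertical axis) for Trib3, Chac1, Asns, Atf4 and Atf5 (colored) and for the 8 pathway genes with r of at least 0.9 with Trib3 (gray), on each array (horizontal axis). Lower panel: mean log2 level of 4 marker lists on the same arrays, where lines only join points of a list. Trib3 and Chac1 are highest on both replicate 3 arrays, and Atf5 is high on the P38α+/− replicate 3 array only.

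The wider pathway was read from 6 further lists with 81 genes, of which 67 were tested. limma called 0 of 67, where it called 0.191% of all tested genes. At an unadjusted p of at most 0.05 it returned 8 (2 higher and 6 lower), a smaller share than the 20.0% of all tested genes. Among all tested genes, 694 of those returned were higher and 2141 lower. P38α−/− was higher without overlap in 3 of the 67 and lower in 8, together 11 or 16.4%, against 27.1% of all tested genes. With limma's array weights 4 of 67 were called (Cebpb, Ddit4, Dnajb9 and Jdp2), where 11.9% of all tested genes were. Those weights were 3.99 for P38α−/− replicate 3 and 2.16 for P38α+/− replicate 2, against 0.47 to 0.77 for the other arrays. The weighted calls thus rest mostly on 1 array of each genotype. With the percentile taken over all probes 1 of 67 was (Ddit4), where 5.21% of all tested genes were. The median log2 difference over the 67 genes was −0.05, against −0.14 over all tested genes.

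Of 8 subunits of eIF2 and its exchange factor eIF2B, 8 were tested and the genotypes did not overlap for 1, Eif2b1, with a difference of −0.22 (SE 0.15, adjusted p = 0.436). Of 12 regulators of the kinases and phosphatase, 12 were tested and 2 did not overlap, both lower in P38α−/−. Both lists lie below the 27.1% of all tested genes. The first of the 2 was Eif2ak2, which encodes PKR, the eIF2α kinase activated by double-stranded RNA. It read −2.40, −2.64 and −2.18 in P38α+/− and −2.93, −3.06 and −3.17 in P38α−/−, a difference of −0.65 (SE 0.18, adjusted p = 0.143). The other was Ppp1r15b, the constitutive partner of the eIF2α phosphatase, with a difference of −0.26 (SE 0.15, adjusted p = 0.362).

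Of 20 genes of amino acid synthesis and transport, 14 were tested, with a median difference of −0.03, and 2 were higher in P38α−/− without overlap, where 7.45% of all tested genes were. Psph, the last enzyme of serine synthesis, differed by 0.61 (SE 0.19, adjusted p = 0.156). The brightest of 3 tested probes named Phgdh, the first enzyme, differed by 0.35 (SE 0.17, adjusted p = 0.305). The array places that probe on chromosome 17, and whether it reads the Phgdh gene itself was not examined. Psat1, the enzyme between them, named after its values were seen, differed by −0.26 (SE 0.28, adjusted p = 0.639) with overlap. Of 13 aminoacyl-tRNA synthetases, 11 were tested, with a median of 0.01, and the genotypes overlapped for all 11.

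Among 16 other ATF4 and CHOP targets and partners, 10 were tested, with a median of −0.33. The largest difference was in Ddit4, an inhibitor of mTORC1 that is induced by several stresses. It read −2.78, −2.15 and −1.34 in P38α+/− and −0.55, −0.24 and −0.25 in P38α−/−, higher without overlap by 1.74 (SE 0.36, adjusted p = 0.103). Cebpb, a C/EBP factor that is also abundant in myeloid cells, read −2.68, −1.72 and −2.28 against −3.58, −3.83 and −3.50, a difference of −1.41 (SE 0.27, adjusted p = 0.090). Sesn2, a leucine sensor, differed by −0.37 (SE 0.17, adjusted p = 0.270). Fgf21, Atf3, Stc2 and 3 others of the list were not well above background on all arrays of either genotype and were not tested.

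The other arms of the unfolded protein response, IRE1 and ATF6, were tested for 12 of 12 genes, with a median of −0.07. In 3 genes P38α−/− was lower without overlap, a share near the 19.6% of all tested genes. Ern1, which encodes IRE1α, read −2.46, −2.38 and −2.15 in P38α+/− and −3.49, −3.57 and −3.05 in P38α−/−, a difference of −1.04 (SE 0.20, adjusted p = 0.088). Dnajb9, an ER chaperone induced through IRE1, differed by −0.88 (SE 0.19, adjusted p = 0.106). Xbp1, whose mRNA is spliced by IRE1, was named after its values were seen. It read −0.63, −0.12 and 0.64 in P38α+/− and 0.23, 0.62 and 1.03 in P38α−/−, overlapping, with a difference of 0.66 (SE 0.37, adjusted p = 0.351). Cebpb, Ern1 and Dnajb9 were lower in P38α−/−, as were neutrophil markers. Within genotypes the arrays did not keep that order. Ern1 was highest on both replicate 3 arrays, where the neutrophil mean was the lowest of each genotype. In P38α−/− replicate 3 was also highest for Cebpb and Dnajb9. In P38α+/− those 2 genes were highest on replicate 2, where the neutrophil mean was highest. The part of those cells in these differences was not tested.

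**Figure D4:**
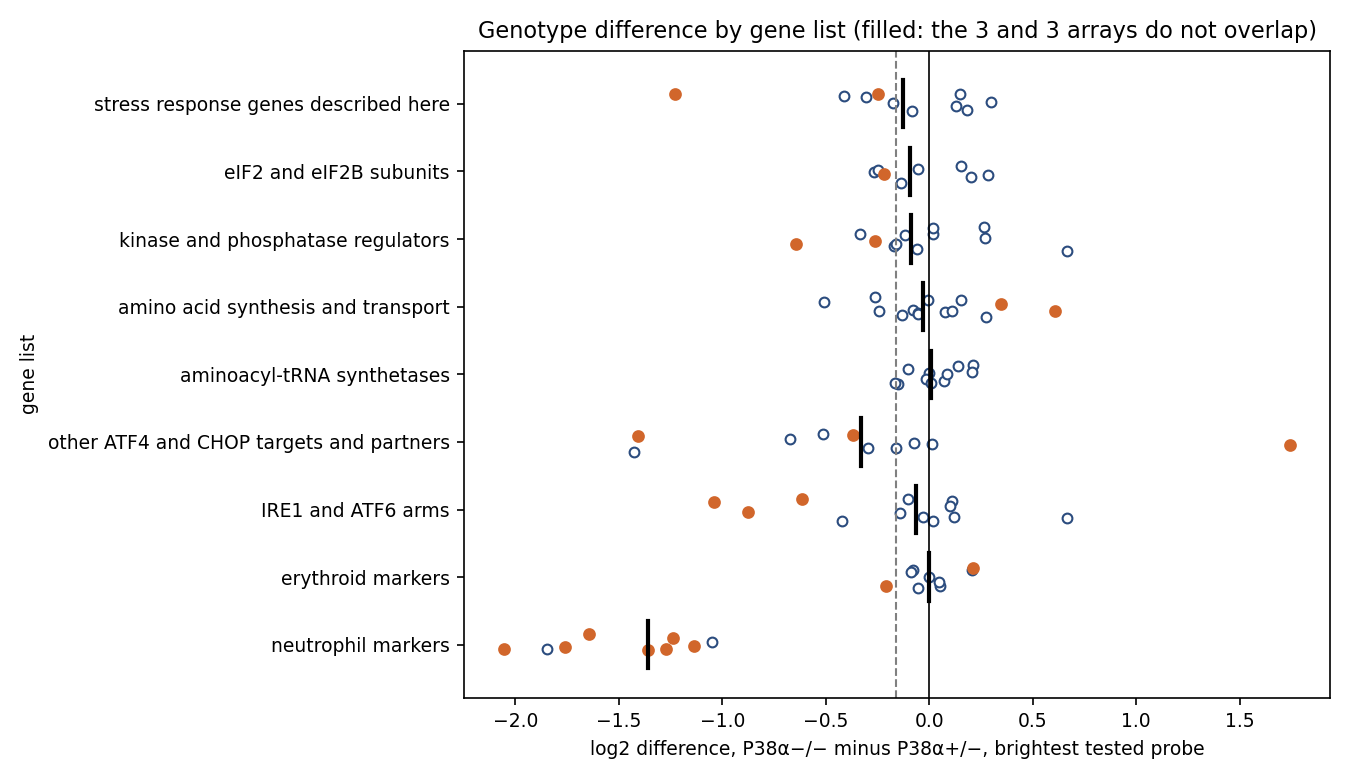
Log2 difference, P38α−/− minus P38α+/− (horizontal axis), of the brightest tested probe of each gene by list (vertical axis). Filled points are genes whose 3 and 3 arrays do not overlap, black bars are list medians and the dashed line is the median of all tested probes. Medians of the stress response lists lie between −0.33 and 0.01, with Ddit4 farthest to the right, and all 9 neutrophil markers lie to the left.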

How the data were processed

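RNA of 6 mice was measured on 6 arrays, and group and replicate number were taken from the sample labels. The authors deposited the intensity of each spot as written by Agilent Feature Extraction (10.7.3.1 in the submitters' processing notes), background-subtracted within the array and not normalized between arrays, with flags and mm9 probe positions. The authors also deposited a table of normalized intensities with its steps not given in the sources used here, whose column for P38α−/− replicate 2 had a Spearman correlation of 0.897 with that array, against 1.00 for the other 5. It was used only as an alternative.

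Control and outlier spots (121 to 159 per array) were left out, spots of a probe averaged, and the deposited intensity put on a log2 scale. From each array its 75th percentile was subtracted, taken over those 15527 probes that every array measured well above background. Probes well above background on all 3 arrays of a genotype were tested, since dim probes have little precision, and no spot was saturated. Of 55681 probes, 27503 were named by accession, 3554 by symbol and 404 by synonym in RefSeq, and 24220 kept the name of the file.

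Genotypes were compared with limma 3.58.1 in R 4.3.3 (lmFit and eBayes, two-sided, Benjamini-Hochberg over all tested probes), which was tested on simulated data. A gene was called if any probe had an adjusted p of at most 0.05 and a fold of at least 2. Single probes and correlations were tested by exact permutation (SciPy 1.17.1). The brightest tested probe stands for a gene. Named genes were all members, and from each list up to 2 rises and 2 falls by size among genes whose genotypes do not overlap. The replicate numbers were taken to pair the mice, since the submitters describe pairs. Same-numbered arrays deviated together from their genotype means (r = 0.392, 0.242 and 0.389, against at most 0.06 for other pairs). Deviations within a genotype cancel out for each probe, so these r values depend on each other and are no separate test of the pairing. The methods' test is unpaired, so the block is an alternative. The others were percentile, quantile, spike-in (E1A) and normexp scaling (offset 50), the filter on dim probes, the authors' table, slide as a block, the methods' test, array weights, and each array left out. Members and lists were chosen with earlier results of these data known. 1 marker gene is not reported here and was left out of its list.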

Additional observations from a re-analysis of the deposited data

How the results depend on the processing

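No member was called under any of the 17 alternatives, which cover scaling, background, filter, block, test, weights and single arrays left out. Of 203 member differences relative to the median probe, 20 reversed. For 60 of the 203 the setting could not move the value by construction (the percentile over all probes, E1A centring, the block and the methods' test) or repeats the array left out with the slide block. Of the other 143, 124 kept their sign and 19 reversed. The number of genes called over all tested genes moved widely from 27. It was 737 with the percentile over all probes, 15 with quantile normalization, 5 with E1A centring, 12 with normexp, 0 with no filter on dim probes, 76 with probes above background on all 6 arrays, 11 in the authors' table, 63 with the replicate block, 0 with the slide block, 2 by the methods' test and 1685 with array weights. At an unadjusted p of at most 0.05 with the fold, limma counted 2320 genes with no filter and 1149 with the slide block. Leaving out 1 array gave 0 to 58 genes, the highest without P38α+/− replicate 3, and 0 without P38α+/− replicate 2 or without any 1 of the P38α−/− arrays. No other array shared the slide of P38α−/− replicate 3, so the slide block equals leaving that array out. Of called genes 77.8% were higher in P38α−/−, against 55.5%, 93.3%, 40%, 100% and 100% under the percentile over all probes, quantile, E1A, normexp and the authors' table. That share was 23.8% with the replicate block and 14.5% with array weights. The median tested probe was −0.16, 0.32, 0.06, 0.05, −0.08 and 0.06 under the main scaling and these 5. Pathway genes called were 1 with the percentile over all probes and 4 with array weights. The replicate block changed no call of a member or pathway gene.

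Values that reversed, all relative to the median probe, were as follows. Eif2ak1 was −0.013 in the authors' table. Eif2ak3 was 0.23 with quantile normalization, 0.037 with normexp and 0.19 in the authors' table, and −0.34 to 0.082 with 1 array left out. The first Eif2ak4 probe was −0.068 with array weights and −0.14 to 0.24 with 1 array left out, and the second 0.019 with quantile normalization. Trib3 was 0.095 with no filter and 0.80 with array weights, and −0.57 to 0.87 with 1 array left out, highest without P38α+/− replicate 3. Asns was −0.46 to 0.10 with 1 array left out, above 0 without P38α+/− replicate 3. Chac1 was −0.22 with the slide block and −0.35 to 1.498 with 1 array left out, highest without P38α+/− replicate 3. Ppp1r15a was 0.019 with no filter, where the median probe moved and the difference of the gene itself did not. The cause was not tested. Array signal over background limits the dim probes, such as those of Eif2ak3 and Eif2ak4, and that of Chac1 outside the replicate 3 arrays.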
